A study of Mus musculus with 10 samples.

Results

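The 10 genes described here encode the transcriptional regulator and structural parts of the motile cilia that ependymal cells carry: Foxj1, Ccdc153, Tmem212, Cfap126, Rsph1, Dynlrb2, Dnah5, Dnah11, Spag6l and Hydin. They were chosen by gene name from the 54532 genes of the count table, and each name matched 1 row. RNA-seq had been run on brain RNA from 10 Slc20a2-HO mice, 6 given FTY720 and 4 given placebo. All 10 were homozygous for the Slc20a2 tm1a knockout allele, and no wild-type library was analysed here. Treatment began at 1.5 months of age and lasted 12 weeks. FTY720 mice received intraperitoneal injections of 0.5 mg/kg FTY720 (fingolimod, a modulator of sphingosine-1-phosphate receptors) in dimethyl sulfoxide several times a week, and the placebo group received dimethyl sulfoxide alone. RNA came from a hemisected brain after perfusion with saline, so each library mixed all cell types of the tissue. Mouse names combine a group letter (F or P), a digit (1 or 3) and a number; 3 FTY720 mice and 1 placebo mouse carried digit 1, and 3 FTY720 and 3 placebo mice carried digit 3. What the digit stands for is not given in the sources used here.

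Ependymal cells form the epithelium that lines the brain ventricles, and their tufts of beating cilia help to move cerebrospinal fluid. A motile cilium is built on an axoneme of doublet microtubules around a central pair. Dynein arms on the doublets supply the force, while radial spokes and the central apparatus shape the beat. Foxj1 is the transcription factor that switches on the motile cilia programme, and RFX factors bind promoters of many of the same genes. Cells of the choroid plexus also carry Foxj1-dependent cilia, so the levels of these genes need not come from ependymal cells alone.

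Promoter windows from RefSeq (GRCm38.p6), 250 bases before to 50 bases after each start, were matched for 8 of the 10 genes, and 4 are shown because they include the genes with the lowest and highest digit 3 levels relative to digit 1. Windows were searched on both strands for the RFX half-site GTTGCC, for a spaced RFX X-box form (GTTNCNN joined to NGGNAAC, N being any base) and for the forkhead core GTAAACA. The half-site and the X-box form can overlap. Letters of a match are in capitals, and each stretch is written 5′ to 3′ on the strand of its gene. Ccdc153 lies on the plus strand at chr9:44240476-44240675, Dynlrb2 on the plus strand at chr8:116504774-116504973, Hydin on the plus strand at chr8:110266948-110266977 and Dnah11 on the minus strand at chr12:118199044-118199243.
Ccdc153: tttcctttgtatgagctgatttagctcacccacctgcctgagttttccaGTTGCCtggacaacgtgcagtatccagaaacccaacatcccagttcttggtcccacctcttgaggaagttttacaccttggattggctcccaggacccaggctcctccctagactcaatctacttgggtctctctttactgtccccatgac
Dynlrb2: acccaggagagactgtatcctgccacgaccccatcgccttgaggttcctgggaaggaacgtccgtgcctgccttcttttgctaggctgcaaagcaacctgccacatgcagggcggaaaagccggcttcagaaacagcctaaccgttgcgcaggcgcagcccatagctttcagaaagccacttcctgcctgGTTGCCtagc
Hydin: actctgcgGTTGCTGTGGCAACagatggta
Dnah11: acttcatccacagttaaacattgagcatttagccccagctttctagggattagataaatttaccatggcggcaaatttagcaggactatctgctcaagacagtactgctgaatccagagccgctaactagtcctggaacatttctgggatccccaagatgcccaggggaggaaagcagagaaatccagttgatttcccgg
The half-site was found in 4 of the 8 windows (Ccdc153, Dynlrb2, Spag6l and Hydin) against 14.1% of 27025 genes with a window. In Hydin the half-site, read on the other strand, fell within the X-box form, which 0.936% of all genes held. That Hydin match overlaps an exon of the antisense gene Gm26832. Among 90 genes of the motile cilia lists described further on, 46.7% held the half-site and 10% the X-box form. The forkhead core was found in 0 of the 8 windows, in 7 of the 90 list genes (7.78%) and in 4.05% of all genes. The Dnah11 window held 0 of the 3 motifs. A match describes letters in the window, and binding was not measured.

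Each library held between 14772745 and 18303981 counts. One feature of the whole series bears on every result below. The 8 cerebellar granule cell genes, which include the GABA-A receptor subunit Gabra6, were called higher in digit 3 in 8 of 8 cases, and their summed level was 1194 to 1335 CPM (counts scaled to the library total) in the 6 digit 3 mice against 223 to 240 CPM in the 4 digit 1 mice. The 5 tested Hox genes, which mark hindbrain and spinal cord, were also called higher in 5 of 5 cases. The summed level of all 8 listed Hox genes was 9.83 to 14.0 CPM in digit 3 and 0.0590 to 0.420 CPM in digit 1. Genes of cerebellum and hindbrain thus moved with the digit, and Hox levels in digit 1 were close to 0. Libraries also differed in a trend of expression with gene length. Its Spearman rho, between a gene's deviation from its mean and its length, ran from -0.41 (P3-612) to 0.37 (P3-904). Slc20a2, the targeted gene, lay between 6.31 and 17.0 CPM in all 10 mice, and as every mouse carried the knockout allele its level does not check the labels. It was 1.66-fold higher in digit 3 (adjusted p = 0.0046).

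Per length, in the deposited FPKM, Foxj1 was the most abundant of the 10 genes, with 3.68 ± 0.764 (SD, n = 10). Rsph1 followed at 2.84 ± 1.07, Dynlrb2 at 2.27 ± 1.31, Tmem212 at 1.94 ± 0.684 and Ccdc153 at 1.84 ± 0.743. Cfap126 and Spag6l stood at 1.25 ± 0.519 and 1.16 ± 0.237. The 3 longest genes were lowest, with Dnah11 at 0.363 ± 0.262, Dnah5 at 0.302 ± 0.0901 and Hydin at 0.132 ± 0.0573. Neighbours in this order differed by less than the larger of their SDs, apart from the steps from Spag6l down to Dnah11 and from Dnah5 down to Hydin. All 10 passed the filter on low counts, but counts were small, from 9 for Dynlrb2 in 1 mouse to 203 for Foxj1 and for Dnah11. Thin counts limit precision most for Dynlrb2 (9 to 40 counts), Tmem212 (12 to 35) and Cfap126 (19 to 56).

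**Figure D1:**
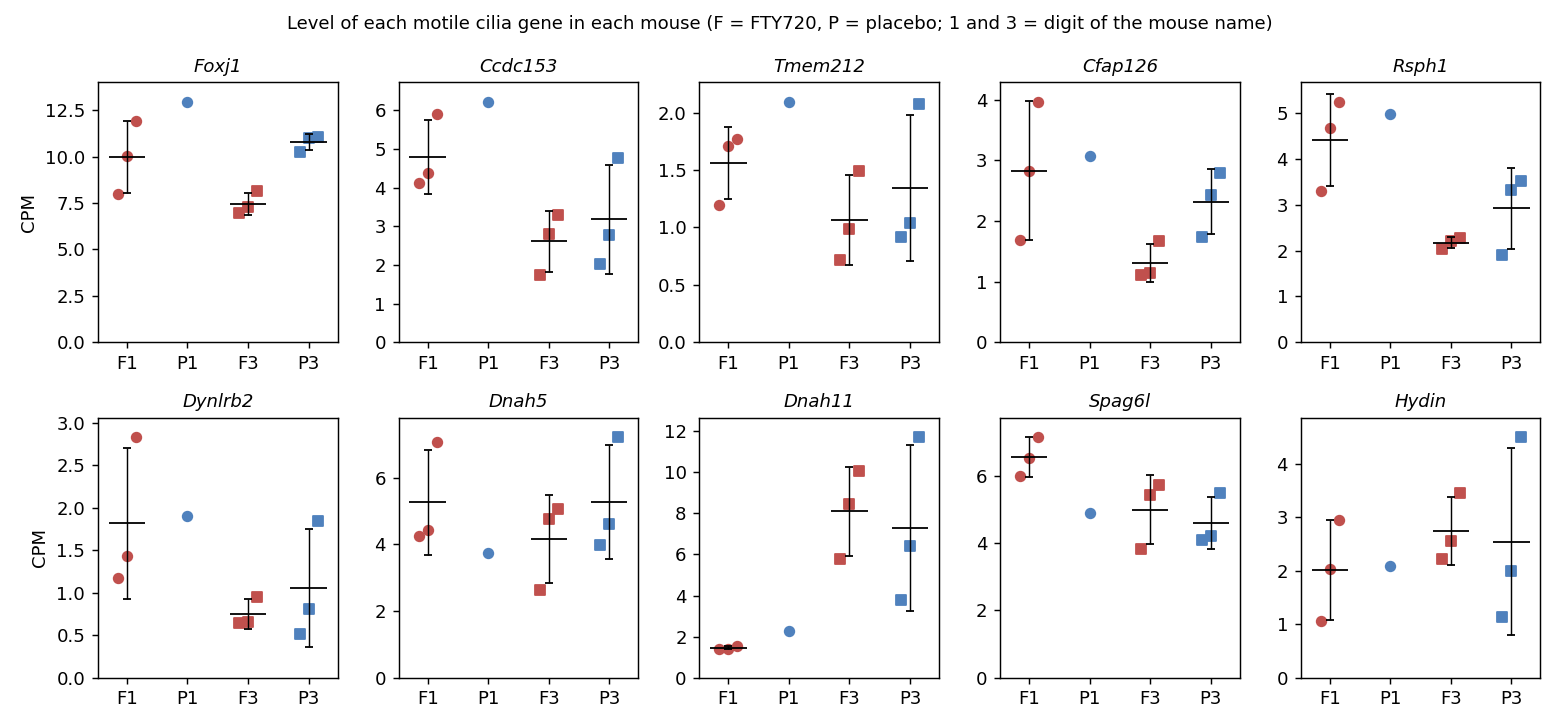
Level of each of the 10 genes (y axis, CPM, from 0) in each mouse (points), by treatment letter (FTY720 red, placebo blue) and digit (1 circles, 3 squares); bars show the mean and SD where a class holds 3 mice, and the single P1 mouse has none. Dnah11 is at or above 3.80 CPM in all digit 3 mice and at or below 2.29 CPM in all digit 1 mice, and the F3 mice lie below the P3 mice for Foxj1 and Cfap126.

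The first comparison asked whether FTY720 altered the motile cilia genes of Slc20a2-HO mice. By the quasi-likelihood test of edgeR, with p-values adjusted over all genes (Benjamini-Hochberg), 0 of the 10 genes and 0 of 17665 genes tested (0%) had an adjusted p under 0.05, and 461 genes had an unadjusted p under 0.05. DESeq2 and limma-voom also called 0 genes after adjustment, with 550 and 475 at an unadjusted p under 0.05. Only Foxj1 of the 10 had an unadjusted p under 0.05, and it was lower in FTY720, as were 1.57% of all genes at that threshold. The median log2 fold change was -0.07 over the 10 genes and -0.0030 over all genes tested. With the digit as a covariate, which the groups did not share equally, the medians were -0.32 and -0.0074, and in digit 3 alone -0.33 and -0.0049. Over all 10 mice, values were lower in FTY720 for 8 genes and higher for 2, and in digit 3 alone lower for 7 and higher for 3. Of the 8 lower values over all mice, only that of Foxj1 was larger than its SE.

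Foxj1 (chr11:116330704-116335399, minus strand) switches on the motile cilia programme. Its level in FTY720 mice was 6.98 CPM at the lowest, 8.07 at the median and 11.9 at the highest. The placebo mice had 10.3 (P3-904), 10.998 (P3-907), 11.1 (P3-612) and 13.0 CPM (P1-623). Of the 6 FTY720 mice, 5 were below every placebo mouse and F1-918 was not, so the groups overlapped. The log2 fold change was -0.38 ± 0.17 (SE), with an unadjusted p of 0.045 and an adjusted p of 0.9999 by edgeR's quasi-likelihood test; the exact two-sided permutation test over 210 splits gave p = 0.052. With the digit as a covariate the log2 fold change was -0.48, with an unadjusted p of 0.0033 and an adjusted p of 0.35, and 7.79% of all genes were lower at an unadjusted p under 0.05. Among the digit 3 mice alone, F3-609, F3-612 and F3-908 (6.98, 7.27 and 8.13 CPM) lay below P3-904, P3-907 and P3-612. Here the log2 fold change was -0.52 (adjusted p = 0.65 by edgeR's quasi-likelihood test), and the exact permutation p of 0.10 is the smallest that 3 against 3 allows. A lower, non-overlapping level in F3 than in P3 was found for 6.52% of all genes. Removing the length trend gave a log2 fold change of -0.30 (unadjusted p = 0.084), and removing the trends on length and GC content gave -0.17 (unadjusted p = 0.17). Foxj1 transcripts hold 61.4% GC, the most of the 10 genes. Across genes, the Spearman rho between deviation from the mean and GC content also differed among the libraries. It was -0.55 (F3-609), -0.32 (F3-612) and -0.26 (F3-908) against -0.21 (P3-904), 0.13 (P3-907) and 0.14 (P3-612), so these groups did not overlap either. The part of these trends in the difference was not tested further.

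Cfap126, a protein of the basal bodies and axonemes of multiciliated cells, was the other gene whose digit 3 groups did not overlap. F3-612, F3-908 and F3-609 had 1.11, 1.14 and 1.67 CPM, and P3-907, P3-904 and P3-612 had 1.73, 2.42 and 2.79 CPM. The log2 fold change in digit 3 alone was -0.82 ± 0.32, with an unadjusted p of 0.031 and an adjusted p of 0.65 by edgeR's quasi-likelihood test; 4.49% of the genes tested were lower at an unadjusted p under 0.05. Over all 10 mice the value was -0.28 ± 0.36. Leaving out 1 mouse moved it from -0.56 (without F1-622, at 3.97 CPM the highest mouse of all) to -0.16 (without F3-612). Of the digit 1 FTY720 mice, F1-918 (1.68 CPM) lay below all 4 placebo mice. F1-624 (2.83 CPM) lay below P1-623 (3.08 CPM) only, and F1-622 lay above all 4.

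For the remaining 8 genes the FTY720 and placebo levels overlapped over all mice and within digit 3. Their log2 fold changes were -0.34 ± 0.61 for Dnah11, -0.22 ± 0.34 for Tmem212, -0.09 ± 0.36 for Ccdc153 and -0.06 ± 0.33 for Rsph1. Dnah5 (-0.05 ± 0.27), Hydin (-0.03 ± 0.38) and Dynlrb2 (0.01 ± 0.48) lay close to 0, and Spag6l was at 0.30 ± 0.19 with an unadjusted p of 0.13. With the digit as a covariate the SE of Dnah11 was 0.29 in place of 0.61, and that of Dynlrb2 0.39 in place of 0.48, at log2 fold changes of -0.05 and -0.33. The interaction of treatment and digit, which rests on the single placebo mouse with digit 1, had an adjusted p under 0.05 for 0 of 17665 genes (0%) and an unadjusted p under 0.05 for 345 (1.95%). None of the 10 genes was among those 345.

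**Figure D2:**
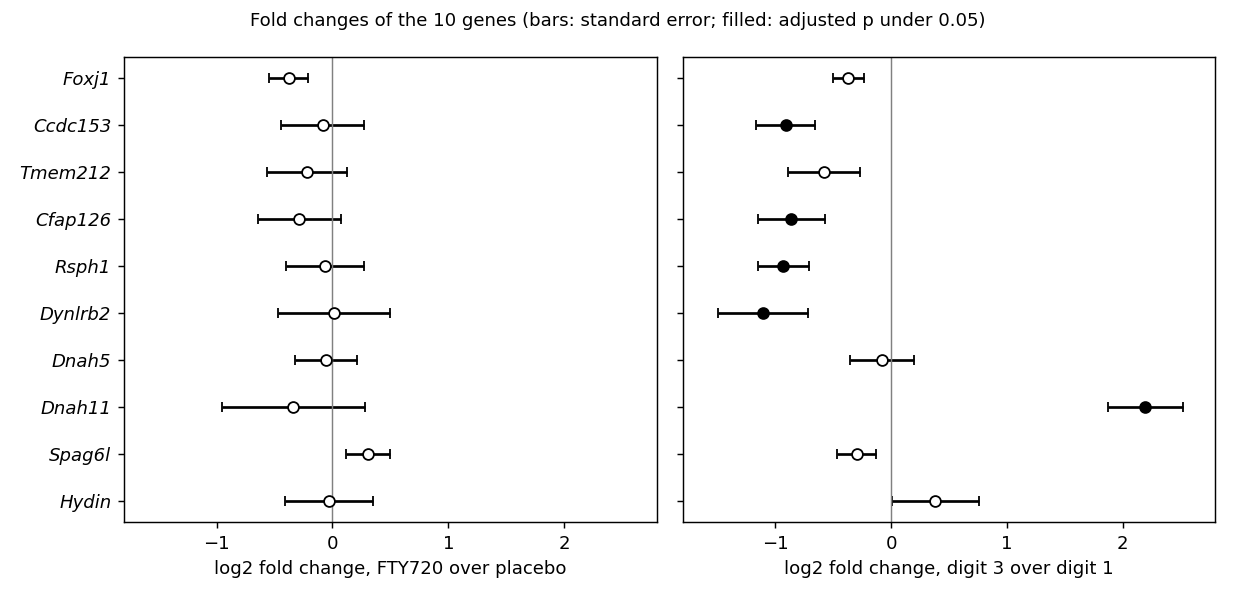
Log2 fold change (x axis) of the 10 genes by edgeR's quasi-likelihood fit for FTY720 over placebo (left) and digit 3 over digit 1 with treatment as covariate (right); horizontal bars are standard errors, and filled points had an adjusted p under 0.05. On the left 0 points are filled; on the right 4 are filled below 0 and Dnah11 is filled at 2.19.

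The second comparison set the 6 digit 3 mice against the 4 digit 1 mice, with treatment as a covariate. It called 5010 of 17665 genes, 13.9% higher and 14.4% lower in digit 3. Of the 10 genes, 4 were lower (Rsph1, Ccdc153, Cfap126 and Dynlrb2) and 1 was higher (Dnah11). Dynlrb2, Rsph1, Cfap126 and Ccdc153 were 556, 1164, 1774 and 2036 bases long, and Dnah11 was 14458. The length trend (rho) of the digit 1 libraries was -0.33 (P1-623), -0.32 (F1-622), -0.10 (F1-918) and 0.11 (F1-624). In digit 3 it was -0.41 (P3-612), -0.06 (P3-907), 0.01 (F3-908), 0.30 (F3-609), 0.35 (F3-612) and 0.37 (P3-904). The part of this trend in the calls was not tested further. The median log2 fold change of the 10 was -0.47, against -0.01 over all genes tested. In bulk tissue, fewer ciliated cells and less RNA per cell cannot be told apart, and the digit cannot be told apart from whatever tissue difference goes with the granule cell and Hox genes.

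Rsph1, a head protein of the radial spoke (chr17:31255019-31277356, minus strand), had 3.30 (F1-624), 4.68 (F1-918), 4.98 (P1-623) and 5.25 CPM (F1-622) in digit 1. In digit 3 it had 1.91 CPM at the lowest, 2.24 at the median and 3.52 at the highest. P3-612 (3.33 CPM) and P3-907 (3.52 CPM) were the digit 3 mice that reached above the lowest digit 1 mouse. The log2 fold change was -0.93 ± 0.22, with an adjusted p of 0.0084 by edgeR's quasi-likelihood test, and it was called in 10 of 10 fits that left out 1 mouse. The exact permutation p was 0.019.

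Ccdc153, a coiled-coil protein used as an ependymal marker (chr9:44240676-44247306, plus strand), had 4.11 (F1-622), 4.38 (F1-918), 5.90 (F1-624) and 6.22 CPM (P1-623) in digit 1. Its digit 3 levels ran from 1.74 CPM through a median of 2.79 to 4.75, and P3-612 was the mouse that overlapped with digit 1. The log2 fold change was -0.91 ± 0.25, with an adjusted p of 0.019 by edgeR's quasi-likelihood test. The call was lost without F3-612 (adjusted p = 0.051) and without P1-623 (adjusted p = 0.095). Tmem212, a membrane protein and likewise an ependymal marker, had 1.20 to 2.10 CPM in digit 1 and 0.717 to 2.08 CPM in digit 3, and its log2 fold change of -0.58 ± 0.31 did not pass (adjusted p = 0.18).

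Dynlrb2 encodes a dynein light chain of the roadblock family (chr8:116504974-116515915, plus strand). In digit 1 it had 1.18 (F1-624), 1.44 (F1-918), 1.90 (P1-623) and 2.84 CPM (F1-622), and in digit 3 it had 0.520 CPM at the lowest, 0.734 at the median and 1.84 at the highest. All digit 3 mice but P3-612 were below 0.957 CPM. The log2 fold change was -1.11 ± 0.39 and the adjusted p 0.048 by edgeR's quasi-likelihood test, and the call was kept in 2 of the 10 fits that left out 1 mouse, those without F1-624 and without P3-612; in the other 8 the adjusted p reached up to 0.13. Its paralog Dynlrb1, with coding sequence 71.8% identical over 291 aligned bases, was at 86.0 to 188 CPM, and its log2 fold change of -0.40 had an adjusted p of 0.11. The exact permutation p was 0.029 for Dynlrb2 and for Ccdc153. Cfap126 was at -0.86 ± 0.29 (adjusted p = 0.042 by edgeR's quasi-likelihood test; exact permutation p = 0.076), with 1.11 to 2.79 CPM in digit 3 and 1.68 to 3.97 in digit 1, and was called in 3 of those 10 fits, those without F1-918, P3-612 and P3-904, with an adjusted p of up to 0.11 in the others.

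Dnah11, an outer-arm dynein heavy chain (chr12:117877982-118199043, minus strand), went the other way. Digit 1 mice had 1.41 (F1-624), 1.42 (F1-622), 1.56 (F1-918) and 2.29 CPM (P1-623). Digit 3 mice had 3.80 (P3-612), 5.80 (F3-908), 6.39 (P3-907), 8.43 (F3-612), 10.1 (F3-609) and 11.7 CPM (P3-904). Every digit 3 mouse was above every digit 1 mouse, a pattern that 7.8% of all genes tested showed in this direction, and 6.41% in the other, where it held for 0 of the 10 genes. The difference was 4.57-fold (log2 fold change 2.19 ± 0.32), with an adjusted p of 0.00059 by edgeR's quasi-likelihood test and an adjusted p of at most 0.0038 in the fits without 1 mouse; the exact permutation p of 0.0048 is the smallest that 210 splits give. Among FTY720 mice alone it was 5.52-fold, and with the length trend removed the log2 fold change was 1.87. Cdca7l, which overlaps Dnah11 on the plus strand, was at 0.535 to 1.14 CPM in digit 3 and 0.766 to 1.97 CPM in digit 1. The log2 fold change of Cdca7l was -0.64 ± 0.33. The library kit does not mark strand, and the strand setting of the counting is not given in the sources used here. Reads from any stretch that both genes share thus cannot be told apart.

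The other outer-arm heavy chain, Dnah5, did not pass, with 2.63 to 7.22 CPM in digit 3, 3.73 to 7.07 CPM in digit 1 and a log2 fold change of -0.08 ± 0.28. Foxj1 was at -0.37 ± 0.13 (adjusted p = 0.054 by edgeR's quasi-likelihood test), with 6.98 to 11.1 CPM in digit 3 and 8.01 to 13.0 CPM in digit 1, and 3 alternatives took it past the threshold, DESeq2 (adjusted p = 0.043), the leading digit of the mouse number as covariate (0.043) and leaving out F1-622 (0.026), while the exact permutation p was 0.24. With length and GC trends removed it was at -0.033 (adjusted p = 0.86). The 2 members of the central apparatus, a structure that includes the armadillo repeat protein Spag6l and the giant protein Hydin, stood at -0.30 ± 0.17 and 0.38 ± 0.37 and did not pass. Spag6l shares 88.3% of 1524 aligned coding bases with Spag6, so the split of reads between them is uncertain; Spag6 was at -0.42 (adjusted p = 0.15).

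Of the further motile cilia genes, 7 lists by role hold 108 genes without the 10, of which 92 were tested. In digit 3, 16 were called lower (17.4%, against 14.4% of all genes tested) and 4 higher (4.35%, against 13.9%), and the median log2 fold change was -0.23. The share called lower was thus near that of all genes, and the counts by role below are small. Radial spoke genes had 3 called lower and 0 higher of 13, Rsph9 (-0.86), Wdr66 (-0.43) and Nme5 (-0.49), and the summed level of all 15 listed was 50.7 to 57.7 CPM in digit 3 against 65.4 to 82.2 CPM in digit 1, with no overlap; the sums of the other 6 lists overlapped between the digits. Doublet microtubule inner proteins had 4 lower and 0 higher of 18, among them the filament protein genes Cfap45 (-0.76) and Tekt1 (-0.70). Inner dynein arm genes were split, with 3 lower, including Dnah1 (-0.67), and 2 higher of 16, the heavy chains Dnah7b (1.23) and Dnah6 (1.16); Dnah7b has close copies, so its reads are uncertain.

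Outer dynein arm and docking genes had 1 higher, the assembly factor Spag1 (0.90), and 2 lower, Ccdc151 (-0.75) and Ccdc103 (-0.81), of 14. The nexin-dynein regulatory complex had Ccdc39 higher (0.67) and Drc1 (-0.53) and Drc3 (-0.48) lower of 12. Central apparatus genes had Spef1 lower (-0.41) of 12, and the multiciliogenesis regulators had the cyclin-like gene Ccno lower (-0.93) of 7. Intraflagellar transport genes, which serve primary cilia as well, had 2 higher, Ift80 (0.64) and Ttc21b (0.44), and 2 lower of 24, with Kif17 at -0.61. With FTY720 0 of the 92 motile cilia genes passed after adjustment, and 1, Efhc2 (0.62), had an unadjusted p under 0.05. These lists thus held genes called in both directions.

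**Figure D3:**
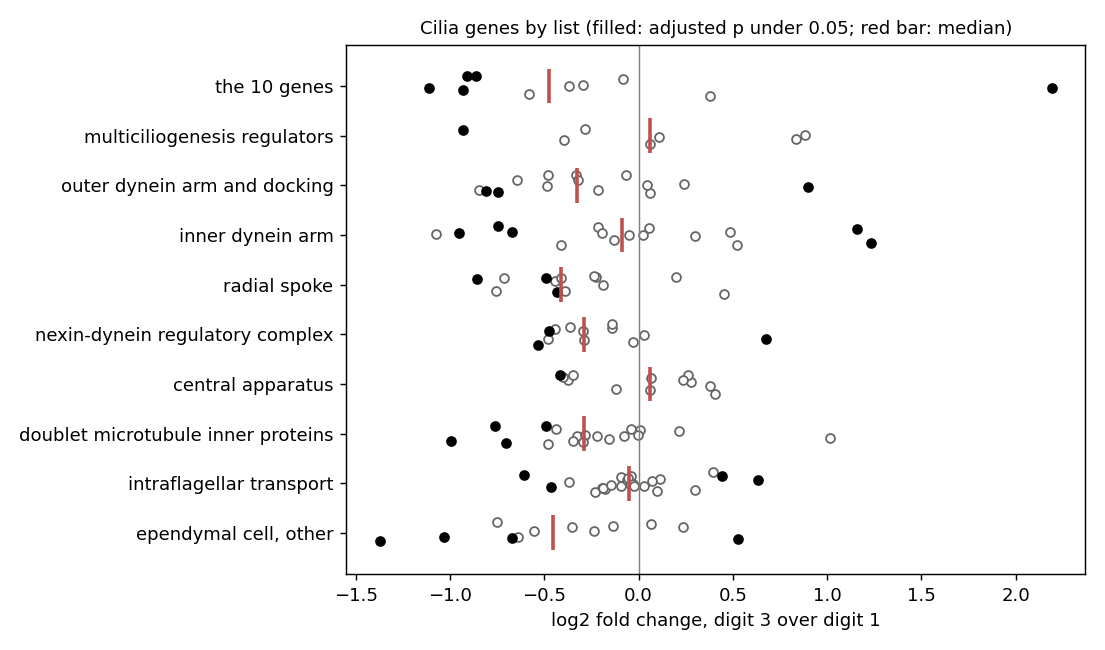
Log2 fold change of digit 3 over digit 1 (x axis) for each tested gene (points; vertical position within a row is arbitrary) of the 10 genes, 7 motile cilia lists, intraflagellar transport and other ependymal genes; filled points had an adjusted p under 0.05 and red bars are medians. The radial spoke and doublet microtubule rows have filled points below 0 and none above, and Dnah11 at 2.19 lies farthest right.

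Of 12 other ependymal genes tested, 9 had a lower value in digit 3, with a median log2 fold change of -0.45. Among them 3 were called lower, 1700016K19Rik (-1.37), Rarres2 (-0.67) and Fam183b (-1.03), and Cd24a was called higher (0.53). The counts of called genes here and in the following lists stand against 14.4% lower and 13.9% higher over all genes tested. The summed levels of all 15 listed genes in the table overlapped, at 72.2 to 97.1 CPM in digit 3 and 75.6 to 96.0 CPM in digit 1. Choroid plexus genes, whose epithelium could supply part of the Foxj1 signal, had 1 of 18 called, Ttr (-0.36), and summed levels of 1009 to 1220 CPM in digit 3 and 1087 to 1264 CPM in digit 1. Tanycyte genes had 3 of 7 called lower (Lhx2, Crym and Gpr50) and sums over all 8 listed genes that did not overlap, 211 to 240 CPM against 286 to 327 CPM, though Lhx2 and Crym are also widely expressed in forebrain neurons. Meningeal genes had 1 of 10 called (Ogn higher), astrocyte genes 3 of 9 (Aqp4 and S100b higher, Aldh1l1 lower) and neuronal genes 3 of 8 (Nefm higher, Eno2 and Tubb3 lower). By treatment, the choroid plexus sums were 1019 to 1220 CPM in FTY720 and 1009 to 1264 CPM in placebo, and Scn7a (0.74) and Gpr50 (1.25) of the tanycyte list and Slc22a6 (-0.39) and Slc6a13 (-0.35) of the meningeal list had an unadjusted p under 0.05 with an adjusted p of 0.9999 by edgeR's quasi-likelihood test. The part of these cell types in the results was not tested.

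Whether the 10 genes moved together was examined first within the 6 digit 3 mice, each gene against the mean of the other 9. By an exact permutation test over 720 pairings, 0 of 10 relations passed at an adjusted p under 0.05, and 7 of 10 had r above 0. Cfap126 came closest, with Pearson's r = 0.88 (exact permutation p = 0.065, adjusted 0.65, n = 6) and Spearman's rho = 0.66 (exact permutation p = 0.18, adjusted 0.88), and r fell to 0.45 without the 2 mice farthest from the median. Foxj1 had r = 0.35 (exact permutation p = 0.49, n = 6) and rho = -0.09 (exact permutation p = 0.92). A pattern shared by the 10 genes was not detectable over these 6 mice.

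Over all 10 mice, with each gene centred on its digit means, 25 of 45 gene pairs were positively and 20 negatively correlated, with a median r of 0.10. The pairs were then grouped by gene length, a grouping chosen after the values had been seen. Among the 6 genes of 2623 bases or less (Dynlrb2, Tmem212, Rsph1, Cfap126, Ccdc153 and Foxj1) 15 of 15 pairs were positive, with a median of 0.40. Among the 3 genes of 14458 bases or more (Dnah11, Dnah5 and Hydin) 3 of 3 were positive, with a median of 0.59. Of the 18 pairs of a short with a long gene 15 were negative, with a median of -0.30, and the lowest was Dynlrb2 with Hydin at -0.94. The 9 pairs of Spag6l, of intermediate length, were 4 positive and 5 negative, with a median of -0.14. The highest of all pairs was Dnah11 with Hydin at 0.78, followed by Tmem212 with Cfap126 at 0.72. All of these are descriptions over 10 points that share libraries.

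**Figure D4:**
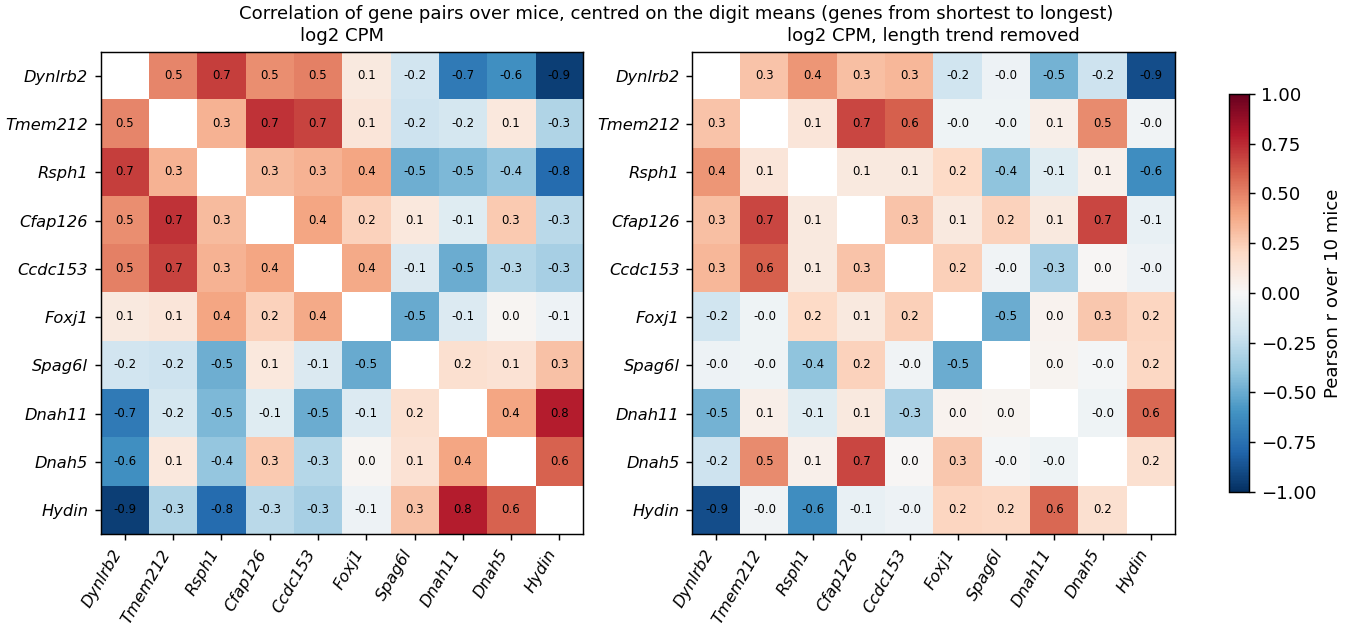
Pearson r over 10 mice for each pair of the 10 genes, ordered from the shortest (Dynlrb2) to the longest (Hydin), on log2 CPM centred on the digit means (left) and after removal of the length trend (right). On the left short genes are mostly red with each other and blue with the 3 long ones, 15 of 18; on the right 9 of those 18 are negative.

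The length trend of the library differed among the mice at the ends of these ranges. P3-612, with a rho of -0.41, had the highest Dynlrb2 (1.84 CPM) and the lowest Hydin (1.13 CPM) and Dnah11 (3.80 CPM) of the digit 3 mice. P3-904, with a rho of 0.37, had the lowest Dynlrb2 (0.520 CPM) and the highest Hydin (4.50 CPM) and Dnah11 (11.7 CPM). In digit 1, F1-622 (rho -0.32) had the highest Dynlrb2 and the lowest Hydin (1.06 CPM), and F1-624 (rho 0.11) the reverse. P1-623, with a rho of -0.33, had the highest Dnah11 of digit 1 (2.29 CPM) and a Hydin of 2.10 CPM, and F3-612, with a rho of 0.35, had a Hydin of 2.56 CPM, so not every mouse followed this order. When the trend of each library on gene length was removed, 9 of the 18 short and long pairs were negative and their median was -0.01, while 13 of the 15 short pairs remained positive with a median of 0.24 and the median of the 3 long pairs was 0.16. Some pairs kept their value, with Dynlrb2 and Hydin at -0.89 and Tmem212 and Cfap126 at 0.66. The length trend thus moved with these correlations; its part in the differences between the mice was not tested further.

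**Figure D5:**
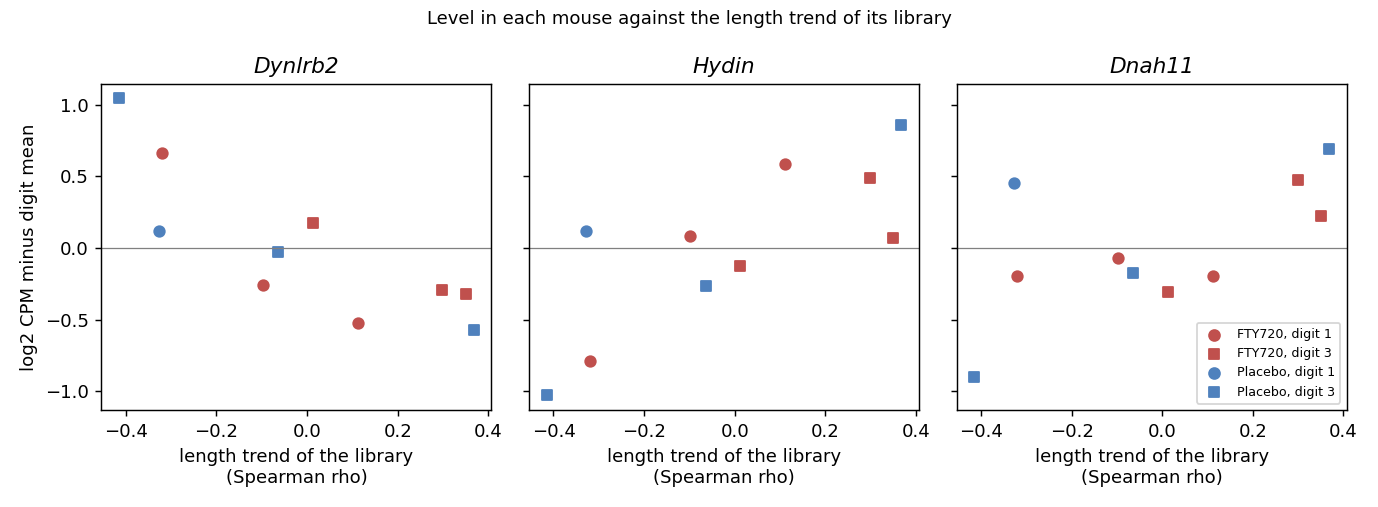
Log2 CPM minus the mean of the digit (y axis) for Dynlrb2, Hydin and Dnah11 in each of the 10 mice, against the length trend of the library (x axis, Spearman rho across genes). Dynlrb2 runs from high at P3-612 (rho -0.41) to low at P3-904 (rho 0.37), and Hydin the opposite way.

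The genes outside the 10 whose centred pattern was most like the mean of the members over 10 mice, among 17655 genes, were Gm48350 (r = 0.93), Cep57l1 (0.91), Brinp3 (0.91), Gm37895 (0.90), Gm15501 (0.89) and Sla2 (0.89), and then 9330159M07Rik, Gm13814, A530072M11Rik and 1500026H17Rik (0.88 to 0.87). This is a ranking by likeness over 10 points, with no test.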

How the data were processed

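Per the labels and the study's methods, 1 library per mouse was made with a NEBNext Ultra kit, which does not mark strand. The submitters' processing notes name CASAVA 1.8, fastp, HISAT2 2.0.5, featureCounts 1.5.0-p3 and DESeq2 1.20.0, with GRCm38; strand setting and annotation release are not given in the sources used here. The authors deposited raw counts per gene (14772745 to 18303981 per mouse) and FPKM per gene, scaled by the authors for gene length and depth, with their gene lengths.

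Counts were tested with edgeR 4.0.16 (R 4.3.3; TMM scaling, filterByExpr, quasi-likelihood test, Benjamini-Hochberg over all genes tested, threshold 0.05). CPM uses TMM-scaled library sizes. SE is that of the log2 fold change. Single genes were also tested by exact two-sided permutation of mean log2 CPM. limma 3.58.1 (voom, and log2(FPKM + 0.1) and log2(FPKM + 1)) and DESeq2 1.42.0 served as alternatives. The alternatives that remove each library's spline trend (5 degrees of freedom) on gene length, or on length and GC content, were chosen after seeing the data, as were the motifs. The code was tested on simulated data. The 45 pairs of libraries all differed beyond sampling noise (chi-square per degree of freedom at least 16.1), so each mouse counted once; p-values measure the spread between these mice.

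The members and lists were chosen with earlier results of these data known. Genes named were the 10, Slc20a2, up to 3 genes per list with the smallest p among those called in the digit comparison and up to 3 with unadjusted p under 0.05 for treatment, the 10 most alike genes, and the paralogs Dynlrb1 and Spag6; Gabra6, Cdca7l and Gm26832 were named after their values or positions were seen. A gene that this rule would name is not reported here. Lists, 16 in all, were of motile cilia by role, intraflagellar transport, and markers of other cells and regions. Promoters are from RefSeq, coordinates in GRCm38, overlaps from GENCODE M21.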

Additional observations from a re-analysis of the deposited data

Results flagged for a closer look

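Over 40 groups of 4 to 6 mice (10 genes in 4 groupings), 3 values stood apart from the others of their group by Dixon's 95% criterion, which chance meets in about 1 of 20 groups. Dynlrb2 in F1-622 (2.84 CPM) stood apart in the FTY720 group, where the next highest mouse was at 1.44 CPM and the lowest at 0.640 CPM. Dynlrb2 in P3-612 (1.84 CPM) stood apart in the digit 3 mice, with the next highest at 0.956 CPM. Dnah11 in P1-623 (2.29 CPM) stood apart in digit 1, with the next highest at 1.56 CPM. F1-622 and P3-612 had negative length trends (rho -0.32 and -0.41), and so had P1-623 (-0.33).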

How the results depend on the processing

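For FTY720 against placebo, 0 genes passed after adjustment in the main fit. The 461 genes with an unadjusted p under 0.05 became 1117 with no filter on low counts, 2256 with the digit as covariate and 1283 in digit 3 alone, and 281 to 984 when 1 mouse was left out. Of the 10 genes, 1 had an unadjusted p under 0.05; this was 0 with no filter, with the leading digit of the mouse number as covariate, with the length trend removed and with length and GC trends removed, 2 in digit 3 alone, and 0 to 1 without 1 mouse. Foxj1 stayed lower in FTY720 in every alternative. Small treatment values changed sign: Ccdc153 to 0.026 and 0.0032 and Rsph1 to 0.058 and 0.072 (length, and length and GC trends removed), Dynlrb2 to -0.33 and -0.48 (digit as covariate, digit 3 alone), Dnah11 to 0.16 (digit 3 alone), and Hydin to 0.074 (limma-voom), 0.073 (leading digit), 0.017 (log2(FPKM + 0.1)), 0.060 (digit as covariate) and 0.12 (digit 3 alone). Leaving out 1 mouse moved them from -0.30 to 0.22 (Ccdc153), -0.26 to 0.17 (Rsph1), -0.36 to 0.27 (Dynlrb2), -0.21 to 0.20 (Dnah5), -0.70 to 0.20 (Dnah11) and -0.26 to 0.45 (Hydin). For the digit, 5010 genes became 3106 in FTY720 mice alone and 2593 (without P1-623) to 6000 (without P3-612) when 1 mouse was left out. The 5 of the 10 genes called became 3 without the treatment covariate, 2 in FTY720 mice alone, and 2 (without F3-612) to 5 without 1 mouse, with Rsph1 and Dnah11 called in all of these; they became 6 by DESeq2, where Foxj1 was added, and 4 by limma-voom, upper-quartile scaling, a minimum of 10 counts in every mouse, the leading digit as covariate (Foxj1 added, Cfap126 and Dynlrb2 lost) and either trend removal; Dnah5 ranged from -0.34 to 0.14. Of the genes called, 49.1% were higher in the main fit, 37.2% with the length trend and 36.5% with both trends removed. The interaction called 26 genes with no filter, 905 unadjusted, and 0 of the 10. The members with r above 0 numbered 4 to 7 when 1 mouse was left out. The cause of these changes was not tested. No paired analysis was possible because F3-612 and P3-612 are the only mice of the groups that share a number; the digit and the leading digit were fitted as covariates.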
